A study of Mus musculus with 10 samples.

Results

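The regions described here are the 1055 places in the mouse genome at which a peak of H3K9 lactylation (H3K9lc) was called both in untreated cardiac fibroblasts and in cardiac fibroblasts treated with TGF-β. They were chosen by the deposited peak calls: of 65853 regions listed for the comparison of control (NC) with TGF-β (TGF), 1055 carried a call in both libraries, 56576 in TGF only, 8167 in NC only and 55 in neither. All libraries came from primary mouse cardiac fibroblasts assayed by CUT&Tag, which sequences the DNA that an antibody-tethered transposase has tagged in chromatin. NC received no treatment, TGF received TGF-β, and siHK1 was transfected with an siRNA against Hk1 before TGF-β was added. Each condition had 1 library per antibody, so the values below carry no replicate error, and conditions were not compared by a test. JUN, SMAD3 and NFATC2 were each profiled in a TGF and an siHK1 library. The title of NC names no antibody, and NC was read as H3K9lc because its label points to the H3K9lc table. The libraries hold no RNA or protein measure, so neither the loss of HK1 nor the purity of the fibroblasts was checked.

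Lactylation places a lactate-derived group on lysines of histones, among them lysine 9 of histone H3, and has been linked to glycolysis, in which hexokinase 1 catalyses the first step. TGF-β is a cytokine that drives fibroblasts into matrix-producing myofibroblasts, and JUN, SMAD3 and NFATC2 are transcription factors that act in this response. Much of the mouse genome is not made of genes. The blocks next to the centromeres consist of major (gamma) satellite DNA, chromosome ends carry TTAGGG repeats, and copies of mitochondrial DNA lie scattered in the nuclear genome. A read from such sequence fits many places, and the assembly holds only a few of the copies that a cell carries.

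The NC library had 115572 reads in the listed regions and the TGF library 2313288. Whole library depths are unknown, so depth and signal cannot be told apart in these sums. In the table of TGF against siHK1, which lists 74751 regions of its own, TGF had 2490853 reads and siHK1 1419023. Both tables held the same TGF library, as the TGF read number was identical at all 44088 regions with equal coordinates. Ratios are therefore given after bringing both libraries to equal totals over all listed regions, as log2 values with 0.5 added to each read number. Equal totals cannot show a gain or loss common to all regions.

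By reads per kb, the shared regions ranked highest were mainly satellite and telomere repeats, and satellite sequence is shown. No library is labelled as a control antibody or as input DNA. The JUN, SMAD3 and NFATC2 libraries also had many reads at such repeats, as given below. H3K9lc signal and background can therefore not be told apart here. Ordered by the mean NC and TGF level per kb, the region ranked highest was chr2:98666240-98667320 (GRCm38), an exon of the gene model Gm10800 that the authors assigned to Lrrc4c, 1198151 bp away. It had 7656 reads in NC, 42265 in TGF and 30866 in siHK1. It holds major satellite, whose unit was taken as the offset of 234 bases at which this region best matched itself, and so does the next ranked region, chr12:3109872-3110107. Of the bases of the chromosome 12 region, 88.6% fell in 15-base words that also occur in the chromosome 2 region on either strand, and capitals mark them. The same mark is given for the middle of chr9:35305226-35305594, an intronic stretch of the lincRNA gene Gm33838.
chr12:3109872-3110107, plus strand: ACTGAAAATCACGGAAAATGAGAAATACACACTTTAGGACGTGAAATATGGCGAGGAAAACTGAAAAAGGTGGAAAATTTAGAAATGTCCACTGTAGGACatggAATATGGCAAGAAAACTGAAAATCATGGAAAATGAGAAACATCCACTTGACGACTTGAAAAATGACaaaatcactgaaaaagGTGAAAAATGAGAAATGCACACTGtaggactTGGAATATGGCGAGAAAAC
chr9:35305290-35305529, plus strand: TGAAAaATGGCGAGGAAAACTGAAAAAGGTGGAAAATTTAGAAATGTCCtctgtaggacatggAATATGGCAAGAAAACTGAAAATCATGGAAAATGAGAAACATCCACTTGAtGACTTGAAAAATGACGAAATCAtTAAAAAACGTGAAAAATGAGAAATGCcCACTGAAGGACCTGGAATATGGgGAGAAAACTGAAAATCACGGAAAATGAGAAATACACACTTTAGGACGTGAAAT
The chromosome 12 region had 743 reads in NC, 4502 in TGF and 3659 in siHK1. The chromosome 9 region had 714, 5456 and 4237 reads in the same order. A neighbour of the Gm10800 region, chr2:98662235-98662785 in an exon of Gm10801, had 1277, 7680 and 5738 reads. Of the 10 highest regions, chr6:103649048-103649320 in an intron of Chl1, a neural adhesion gene, aligned to the satellite below the limit set for that class and had 609, 3571 and 2584 reads. Also among the 10 was chr17:13550673-13553186, a multi-copy region that is neither satellite nor telomere repeat and is described below.

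The telomere repeat also ranked high per kb. The midpoint of the region chr7:145340926-145341456 lies 268 bases before the last sequenced base of chromosome 7, and 99.4% of the region was TTAGGG on either strand. Its reads numbered 1164 in NC, 9025 in TGF and 6774 in siHK1. Shorter interstitial runs of the same repeat lay far from chromosome ends, as in an intron of Flt1 (a VEGF receptor of endothelial cells) and upstream of Mfap2 (a microfibril protein). The repeat made up 65.5% of the Flt1 region and 37.2% of the Mfap2 region.

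Other shared regions copied mitochondrial DNA, ribosomal DNA or a short tandem unit. An example of the first is chr2:22587575-22588098, the pseudogene Gm13341, where capitals mark 31-base words found unchanged in the mitochondrial genome. The stretch from Rn45s, the gene of the ribosomal RNA precursor, is shown for its CpG density, with each CG in capitals. The stretch upstream of Slc45a1, which encodes a sugar transporter, is shown for its 5-base unit, with capitals where a base equals the base 5 positions before it.
Gm13341, chr2:22587733-22587972, plus strand: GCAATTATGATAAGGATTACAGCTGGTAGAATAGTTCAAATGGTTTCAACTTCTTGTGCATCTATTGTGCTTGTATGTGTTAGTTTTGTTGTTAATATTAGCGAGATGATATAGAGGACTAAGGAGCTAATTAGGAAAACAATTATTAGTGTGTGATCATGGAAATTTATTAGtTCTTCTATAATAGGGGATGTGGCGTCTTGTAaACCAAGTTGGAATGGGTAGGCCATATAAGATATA
Rn45s, chr17:39845214-39845393, plus strand: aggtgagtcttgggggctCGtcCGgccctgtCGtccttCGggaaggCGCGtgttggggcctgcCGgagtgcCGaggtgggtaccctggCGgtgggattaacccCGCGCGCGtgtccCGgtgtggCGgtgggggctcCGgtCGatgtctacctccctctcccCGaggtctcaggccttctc
Slc45a1, chr4:150644971-150645150, plus strand: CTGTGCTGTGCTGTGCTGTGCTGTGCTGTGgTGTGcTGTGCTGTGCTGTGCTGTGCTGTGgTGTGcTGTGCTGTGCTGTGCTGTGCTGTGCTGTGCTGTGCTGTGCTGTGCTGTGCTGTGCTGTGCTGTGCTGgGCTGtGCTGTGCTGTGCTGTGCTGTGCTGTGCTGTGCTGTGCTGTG

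The shared regions were sorted into 8 sequence classes from the GRCm38 assembly, a sorting chosen after the data were seen. Of 26 listed regions of major satellite, 20 were shared (76.9%), and the other 6 were called in TGF only. Of 83 regions of telomere repeat, 35 were shared (42.2%). The shares were 10 of 21 (47.6%) for satellite of under 85% identity, here called diverged satellite, 4 of 7 for mitochondrial copies and 2 of 3 for ribosomal DNA. Short tandem repeats gave 72 of 1108 (6.50%). The most numerous classes gave the lowest shares: 457 of 29468 (1.55%) for other multi-copy sequence and 455 of 35137 (1.29%) for mostly single-copy sequence. A region counted as mostly single-copy where at least 50% of its sampled 31-base words occurred at 1 place in the assembly. Thus few of the shared regions were satellite or telomere repeats, yet most listed regions of major satellite were shared. The reference for the satellite classes came from the region with most NC reads, itself shared. These shares also rest on the calls that chose the set and are a description.

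A small part of the listed length held many of the reads. The shared regions covered 741 kb, which is 2.42% of the listed length, and held 46829 of the NC reads (40.5%) and 578759 of the TGF reads (25.02%). That is 63.2 reads per kb in NC and 781 in TGF, against 2.12 and 62.9 in regions called in TGF only. These levels follow from the choice by peak calls in the same libraries and are given as a description. The region at Gm10800 alone held 16.3% of the shared NC reads, the top 10 regions held 44.1%, and the top 100 held 88.8%. At the other end, 174 of the shared regions (16.5%) had a single NC read, and 415 (39.3%) had 5 or more. The median shared region was 587 bp wide (quartiles 450.5 and 830) and had 3 NC reads (2 and 7), 38 TGF reads (20 and 108.5) and 21 siHK1 reads (9 and 63.5).

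The calls did not follow read number strictly at the border of the set. The TGF-only region with most NC reads, chr9:3023420-3024656, had 1914 reads in NC, 14856 in TGF and 10113 in siHK1. It is major satellite, yet carried no NC call. Another, chr1:24614854-24616136, a mitochondrial copy, had 336, 5851 and 3681 reads. No NC-only region had more than 8 NC reads. The NC-only region with most TGF reads, chr16:79853372-79854812, had 3 NC and 97 TGF reads.

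**Figure D1:**
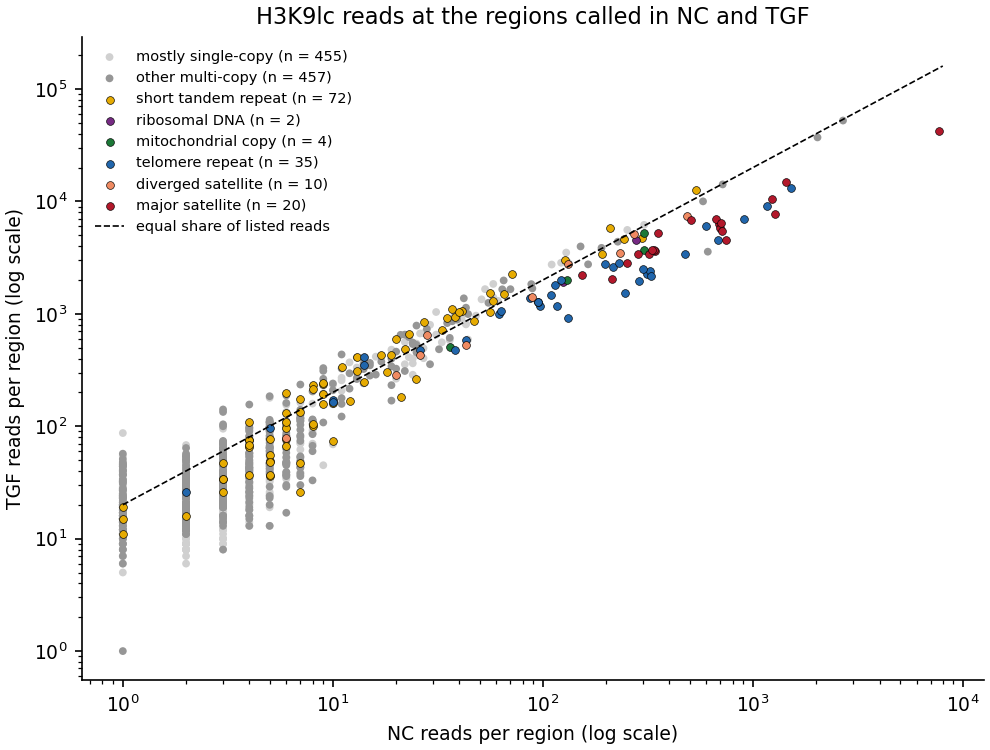
Reads per region in the NC library (horizontal, log scale) against reads in the TGF library (vertical, log scale) for the 1055 shared regions, 1 point per region, coloured by sequence class. The dashed line marks equal shares of listed reads: all 20 major satellite regions and 33 of 35 telomere repeat regions lie below it, and the region with most NC reads (7656) lies at the far right.

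Read numbers by class spanned orders of magnitude. The 20 major satellite regions had 153 to 7656 reads in NC (median 585), 2053 to 42265 in TGF (5368) and 1354 to 30866 in siHK1 (3770). The 35 telomere repeat regions had 2 to 1508 reads in NC (median 117), 26 to 13272 in TGF (1460) and 17 to 10149 in siHK1 (1075). The 10 diverged satellite regions had medians of 66, 1034 and 619.5 reads, and the 72 short tandem repeats 9, 188 and 110. Mostly single-copy regions had medians of 3, 26 and 12 reads, with a highest value of 303 in NC and 6183 in TGF. The median widths of the major satellite and mostly single-copy regions were close, at 660 and 568 bp.

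Shares of the listed reads in NC and TGF are given as a description. The 20 shared major satellite regions held 16.4% of the listed NC reads and 6.39% of the TGF reads in the same table, and the 35 shared telomere repeat regions 7.80% and 3.53%. A further 6 major satellite and 48 telomere repeat regions called in TGF only are not in these sums. The log2 ratio of TGF over NC was below 0 at all 20 major satellite regions (median -0.95) and at 33 of 35 telomere repeat regions (median -0.70). Over the shared regions the median was -0.83 (quartiles -1.48 and -0.24), against -0.08 over all listed regions. Among mostly single-copy shared regions it was -0.98. These ratios come from the libraries that chose the regions, and without scaling the shared median was 3.50, so no direction is read from them.

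The siHK1 library had not been used for the choice. A peak was called in siHK1 at 611 of the 1055 shared regions (57.9%, exact 95% interval 54.9 to 60.9), at 28.2% of TGF-only regions (27.8 to 28.6) and at 2.24% of NC-only regions. Intervals here and below cover counting error over regions, which are not replicates. All 20 major satellite, 10 diverged satellite, 35 telomere repeat, 4 mitochondrial and 2 ribosomal regions carried an siHK1 call, and so did 67 of 72 short tandem repeats. The share was 58.2% (266 of 457) for other multi-copy sequence and 45.5% (207 of 455) for mostly single-copy sequence, beside 22.04% of mostly single-copy TGF-only regions. In the 415 shared regions with at least 5 NC reads it was 90.1%.

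Since read number differed between the sets, the share with an siHK1 call was compared within bins of TGF read number. The sets also differed in width, which an overlap can depend on, with medians of 587 bp for shared and 382 bp for TGF-only regions. Within bins the median widths were 467 and 335 bp at 10 to 19 reads, 579 and 495 bp at 20 to 49, 806 and 820.5 bp at 50 to 99, and 916.5 and 1147 bp at 100 to under 1000 reads, where the median read numbers were 264.5 and 133. The part of width and of read number within a bin was not tested. At 10 to 19 TGF reads it was 19.9% of shared and 17.3% of TGF-only regions, with overlapping intervals. At 20 to 49 reads it was 48.6% (43.4 to 53.7) against 37.0% (36.3 to 37.6), and at 50 to 99 reads 72.9% (64.9 to 79.98) against 57.2% (55.9 to 58.5). At 100 to under 1000 reads it was 95.6% (91.5 to 98.1) against 68.7% (66.5 to 70.9). All 101 shared regions with at least 1000 TGF reads carried an siHK1 call, as did 24 of the 26 such TGF-only regions. In mostly single-copy sequence alone the shares at 100 to under 1000 reads were 97.9% (47 of 48) and 69.6% (64.8 to 74.1). At 20 to 49 reads they were 48.9% (41.5 to 56.4) and 35.1% (34.1 to 36.2). At 50 to 99 reads they were 66.7% (51.6 to 79.6) and 56.3% (53.9 to 58.8), with overlapping intervals. Below 20 reads and at 1000 or more the intervals of both sets overlapped too.

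**Figure D2:**
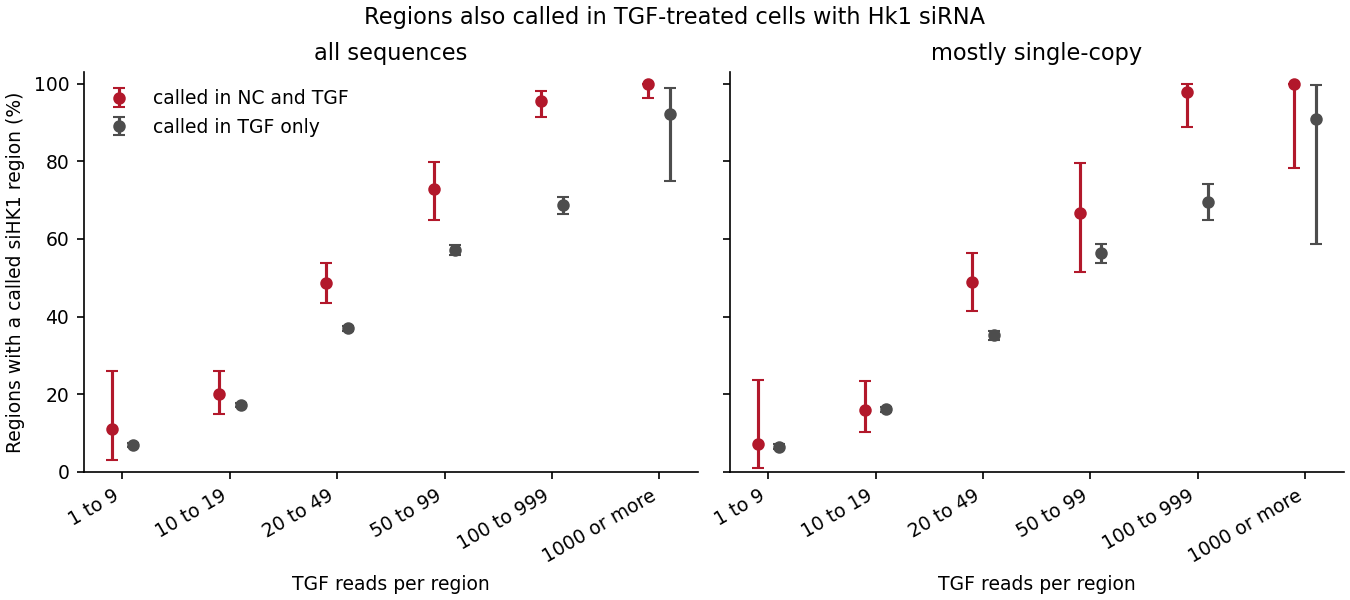
Percent of regions overlapped by a called siHK1 region (vertical) in bins of TGF reads per region (horizontal), for shared regions (red) and TGF-only regions (grey), over all sequences (left) and mostly single-copy sequence (right). Points are shares and bars are exact 95% binomial intervals over regions; from 20 to under 1000 TGF reads the shared regions lie above the TGF-only regions in the left panel, as at 100 to under 1000 reads with 95.6% against 68.7%.

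The read numbers of TGF and siHK1 were compared at the shared regions. At least 2-fold lower in siHK1 were 82 of 1055 (7.77%, 6.23 to 9.56), against a background of 13.7% of all 74751 regions of that table and 17.9% of TGF-only regions. At least 2-fold higher were 8 (0.758%, 0.328 to 1.49), against a background of 13.0% and 0.599% of TGF-only regions. TGF-only regions rest on a TGF call as the shared regions do and are the nearer comparison. The share of lower regions fell with read number in both sets. At 10 to 19 TGF reads it was 20.4% of shared and 25.5% of TGF-only regions. At 20 to 49 reads it was 7.87% and 9.62%, and at 50 to 99 reads 0.694% and 1.39%. Over all shared regions it was 39.6% without scaling. In the 415 shared regions with at least 5 NC reads it was 0.723%, and there the median given next turned to 0.031. The log2 ratio of siHK1 over TGF had a median of -0.067 (quartiles -0.40 and 0.18), against -0.081 over all regions and -0.29 in TGF-only regions. It moved with read number: in shared regions with 10 to 19 TGF reads it was -0.35, with 50 to 99 reads -0.080 and with at least 1000 reads 0.17. TGF-only regions gave -0.41, -0.13 and 0.013 in the same bins. None of the 182 shared regions with 100 to under 1000 TGF reads, and none of the 101 with 1000 or more, passed 2-fold in either direction.

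The ratio of siHK1 over TGF varied between sequence classes. With equal totals the ratio was above 0 at all 20 major satellite regions (0.11 to 0.51, median 0.20), at 33 of 35 telomere repeat regions (median 0.35) and at all 4 mitochondrial copies (median 0.29). It was above 0 at 4 of 10 diverged satellite regions (median -0.011) and below 0 at both ribosomal regions (-0.16). Mostly single-copy regions had a median of -0.16 and other multi-copy regions -0.079. Scaling that sets regions called in both libraries to a median of 0 lowers every value by 0.079, which leaves all 20 satellite ratios above 0. Without scaling the ratios of the satellite, telomere and mitochondrial regions were all below 0. The shared major satellite regions held 6.04% of the TGF reads listed and 7.26% of those of siHK1, and the shared telomere repeat regions 3.28% and 4.28%.

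**Figure D3:**
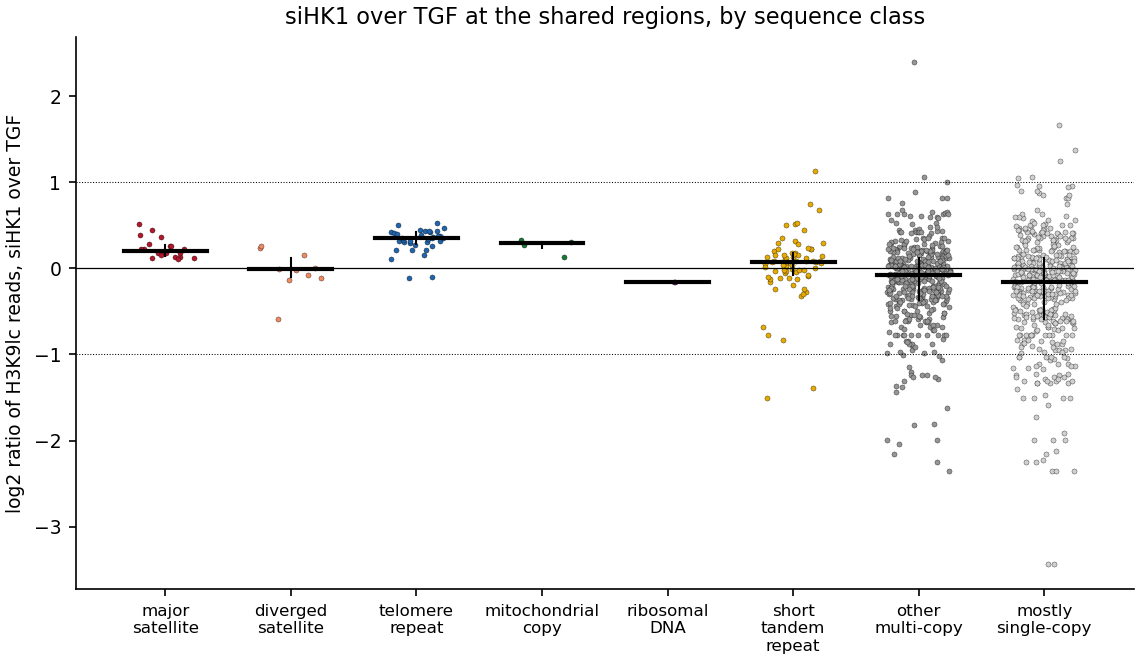
The log2 ratio of siHK1 over TGF H3K9lc reads at equal totals (vertical) for each shared region, by sequence class (horizontal). Thick bars are medians, thin vertical lines span the quartiles and dotted lines mark 2-fold. All major satellite regions lie between 0.11 and 0.51, whereas mostly single-copy regions scatter widely around a median of -0.16.

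The regions with the largest differences between siHK1 and TGF, among shared regions whose mean level over TGF and siHK1, taken from the table of those libraries, was above the median of the shared regions, were lightly read. The lowest ratio of this group lay 48221 bp from the start of Cyp3a16, a cytochrome P450 gene, at chr5:145420902-145421502, with 2 reads in NC, 45 in TGF and 10 in siHK1. Its log2 ratio was -1.21 (exact counting interval -2.42 to -0.24). It was followed by a region 6278 bp upstream of Impact, an imprinted translational regulator, with 6, 52 and 14 reads and a ratio of -1.04 (-2.05 to -0.21). Regions near Sult1c2 (a sulfotransferase) and Btbd35f2 both had 4, 43 and 12 reads (-0.99), and one near Zbtb33, which encodes the methyl-CpG binder Kaiso, had 4, 58 and 17 reads (-0.85). The intervals of the last 3 also stayed below 0, the closest to it ending at -0.076.

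The highest ratios in the same group were near Dok5, Abo, 2610307P16Rik, Cadm1 and Ift52. The region 56792 bp from Dok5, a docking protein of receptor tyrosine kinases, had 5 reads in NC, 25 in TGF and 28 in siHK1, a ratio of 0.97 (0.14 to 1.81). The region near Abo, the blood group glycosyltransferase, had 4, 31 and 33 reads (0.90, 0.15 to 1.66). That near 2610307P16Rik had 3, 39 and 33 reads (0.86), and that near the adhesion gene Cadm1 had 4, 35 and 36 reads (0.85). An intronic region of Ift52, a component of the transport machinery of cilia, had 7, 30 and 30 reads (0.81, 0.032 to 1.59). These 10 regions were picked for their ratio, and with 1 library per condition counting intervals say nothing of the spread between cultures. The ratio uses TGF reads within the borders of the second table, which for 3 of the 10 hold fewer TGF reads than given here.

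Several shared regions lay at chromosome ends. Of the 35 telomere repeat regions, 11 lay at the ends of 11 different chromosomes, each with its midpoint within 346 bases of the last sequenced base. The one with most reads, chr14:124801553-124802243, had 1508 reads in NC, 13272 in TGF and 10149 in siHK1. The end of chromosome 18 had 901, 7021 and 5082 reads, and that of chromosome 12 679, 4544 and 3669. Interstitial telomere repeats varied widely in read number, with 2, 26 and 17 reads near Ddx60 and 326, 2149 and 1563 near Adgre5, the latter above the 286, 1963 and 1506 reads at the end of chromosome 1. The repeat in Flt1 had 245, 1518 and 1075 reads and that near Mfap2 43, 589 and 452.

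Mouse chromosomes carry the centromere at the end where the assembly starts, and shared regions gathered there. Within 200 kb of the first sequenced base lay 41 of the 1055 shared regions (3.89%, 2.80 to 5.24), on 9 chromosomes, against 0.401% of TGF-only (0.351 to 0.457) and 0.171% of NC-only regions. They held 21.4% of the shared NC reads. Chromosome 9 had 14 of them, 13 of which were major satellite near Mir101c, a microRNA gene. Chromosome 17 had 10, of which 8 were mostly single-copy, near the pseudogene Pisd-ps2. Those 10 had 24 to 303 reads in NC, 555 to 6183 in TGF and 321 to 3588 in siHK1. The 16 mostly single-copy shared regions within 200 kb of a chromosome start had medians of 52 NC and 1172 TGF reads, against 2 and 25 in the other 439. A word counted as single-copy occurs at 1 place in the assembly, which says nothing of unassembled copies.

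A set of regions resembled satellite in part. The 10 diverged satellite regions aligned to the 234-base unit at 71.0 to 80.5% identity. They lay in introns of Ankar, Mdga2 and Spag17, near Kcnh5, Nbea, Nol11, Pisd-ps1 and Vmn1r2, and upstream of Oasl1 and Ank1. The intronic Mdga2 region (Mdga2 encodes a synaptic adhesion protein) had 485 reads in NC, 7400 in TGF and 4203 in siHK1. The smallest was in Ankar, with 6, 78 and 52 reads. The region outside these classes with most reads was chr17:13550673-13553186, in an intron of the lincRNA gene 2700054A10Rik, with 2681, 52403 and 33960 reads, a TGF over NC ratio of -0.035 and an siHK1 over TGF ratio of 0.19. Only 11.2% of its words were single-copy. Its TGF and siHK1 read numbers were above those of every other shared region, Gm10800 included. Another multi-copy region, near the zinc finger gene Zfp825, had 2027, 37097 and 24046 reads.

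By the authors' annotation, 649 of the shared regions were distal intergenic (61.5%, 58.5 to 64.5), 243 intronic (23.0%), 96 at promoters (9.10%, 7.43 to 10.999) and 60 exonic (5.69%). Promoters made up 6.43% of TGF-only regions (6.23 to 6.64) and 10.7% of NC-only regions. Among the mostly single-copy shared regions 12.5% were at promoters. GC content had a median of 49.9% in shared, 48.8% in TGF-only and 45.1% in NC-only regions. Repeat-masked bases made up a median of 66.3%, 66.9% and 24.8%.

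Within 1 kb of a start site lay 58 shared regions (5.50%, 4.20 to 7.05), beside 3.22% of TGF-only and 5.52% of NC-only regions. A peak was called in siHK1 at 23 of the 58 (39.7%, 27.05 to 53.4), below the 57.9% of all shared regions and beside 20.7% (18.8 to 22.6) of the 1824 TGF-only regions within 1 kb of a start. The 10 with the highest levels were mainly repeats beside a start site. The region near Mir101c, a major satellite, had 153 reads in NC, 2209 in TGF and 1354 in siHK1. Upstream of Oasl1, an interferon-induced gene, 28, 643 and 437 reads lay in bases 114922448 to 114922695 of chromosome 5, which aligned over part of their length to the satellite unit at 80% identity. That sequence is shown in full, in lower case with nothing marked.
Oasl1, chr5:114922448-114922695, plus strand: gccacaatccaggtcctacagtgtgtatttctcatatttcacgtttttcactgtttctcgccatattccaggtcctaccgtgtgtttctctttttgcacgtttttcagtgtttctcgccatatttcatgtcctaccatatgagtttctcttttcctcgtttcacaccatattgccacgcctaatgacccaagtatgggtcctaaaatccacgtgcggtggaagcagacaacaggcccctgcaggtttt
The region upstream of Ank1, which encodes an ankyrin of the red cell skeleton, had 26, 428 and 272 reads and 77.9% identity. Slc45a1 had 22, 490 and 296 reads, and Mfap2 and Dmbt1, both with telomere-like repeats, had 43, 589 and 452 and 14, 348 and 221 reads. Over all 10, ratios of siHK1 over TGF ran from -0.16 at Rn45s to 0.43 at Mfap2. They were below 0 at Rn45s and at Sfi1, which are described next. Over the 58 regions within 1 kb of a start the median ratio was -0.18. Of these 58, 11 (18.97%, 9.87 to 31.4) were at least 2-fold lower in siHK1 and 0 at least 2-fold higher. The 1824 TGF-only regions within 1 kb of a start had a median of -0.41, and 24.8% (22.9 to 26.9) were at least 2-fold lower.

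The ribosomal gene Rn45s held 2 adjacent shared regions. The upstream region, chr17:39842997-39844116, had 125 reads in NC and 1908 in TGF. The next, chr17:39844117-39846491, had 276 in NC, 4547 in TGF and 2327 in siHK1. Because the borders are shifted by a base in the siHK1 table, the first region overlaps both siHK1 regions and takes their sum of 3296 siHK1 and 6455 TGF reads. Both ratios were therefore near -0.16 and are not independent. Dux, a transcription factor gene in a tandem array that is active in early embryos, had 39, 887 and 522 reads near its start site. The region at the start of Sfi1, a centrin-binding protein, was all single-copy words and had 25, 543 and 308 reads, with ratios of 0.091 for TGF over NC and -0.0053 for siHK1 over TGF.

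At the remaining start sites the reads were few. At the start of Igf2, the imprinted growth factor, there were 1, 87 and 51 reads in NC, TGF and siHK1. At Rps29, a ribosomal protein gene, there were 4, 40 and 7 reads, a ratio of -1.47 (-2.96 to -0.36). At Carm1, an arginine methyltransferase, there were 3, 9 and 6 reads. At Foxm1, a cell cycle transcription factor, there were 2, 13 and 3 reads, with an interval of -3.76 to 0.56 that includes 0. These 4 were picked by eye from the 58 after their values were seen.

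Genes of the fibroblast response were looked up among the assigned genes. Of the 12929 genes with any region, 892 had a shared region (6.90%), 11614 a TGF-only and 5215 an NC-only region. Of 162 genes in lists for matrix, TGF-β signalling, AP-1 and NFAT, glycolysis, histone acylation, interferon regulatory factors and cell types, 6 had a shared, 75 a TGF-only and 52 an NC-only region. The matrix list had 2 of 20 genes and the list of cardiac fibroblast markers 1 of 16. No shared region was assigned to any of the 16 TGF-β signalling, 20 glycolysis and lactate, 15 histone acyl enzyme or 9 interferon regulatory factor genes. Nor was one assigned to the macrophage, smooth muscle or housekeeping lists. The lists also count genes with no listed region, and nothing is read from a count of 0 in lists this short.

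Of the 6 regions, those of Col3a1, Axin2 and Jun lay far from their gene. A region 105862 bp from Col3a1, a fibrillar collagen of scar tissue, had 3 reads in NC, 36 in TGF and 37 in siHK1. Its ratio of siHK1 over TGF was 0.63 with a counting interval of -0.049 to 1.30, and all its bases were repeat-masked. A region 68025 bp from Axin2, a target and inhibitor of Wnt signalling, had 31, 653 and 372 reads and a ratio of 0.00080 (-0.19 to 0.19). Its sequence looks like that of the large ribosomal RNA, which was not tested for want of a reference, so its class as mostly single-copy and its assignment to Axin2 are uncertain. A region 207923 bp from Jun had 3, 45 and 20 reads (-0.21, -1.07 to 0.58). The region 8645 bp from Gata4, a cardiac transcription factor used here as a marker of cardiac fibroblasts, had 4, 92 and 57 reads (0.065). Intronic regions lay in Ryr2, the calcium release channel of cardiomyocytes, with 5, 76 and 43 reads (-0.0027), and in Flt1, the telomere repeat described above (0.31, 0.20 to 0.43). Only the Flt1 interval left out 0.

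The libraries of JUN, SMAD3 and NFATC2 were not used to choose the regions. Of the shared regions 292 overlapped a listed JUN region (27.7%, 24.996 to 30.5), 318 a SMAD3 region (30.1%, 27.4 to 33.01) and 305 an NFATC2 region (28.9%, 26.2 to 31.7). In the shared regions with at least 5 NC reads the shares were 56.4%, 60.7% and 59.3%. In mostly single-copy sequence the shares were 21.8%, 22.2% and 20.7% of shared, 8.09%, 6.64% and 6.64% of TGF-only, and 4.85%, 2.97% and 2.84% of NC-only regions. Over all regions of each kind the shares were 5.87%, 6.56% and 6.65% in TGF-only regions and 4.07%, 2.61% and 2.64% in NC-only regions. Regions of all 3 factors overlapped 237 shared regions (22.5%, 19.98 to 25.1), 2.14% of TGF-only and 0.416% of NC-only regions. In the upper bins the overlap rose with read number. At 10 to 49 H3K9lc reads in TGF it stayed between 8.06 and 11.4% of shared regions for each factor, and at 100 to under 1000 reads it was 61.5% for JUN and 69.8% for SMAD3 and for NFATC2. TGF-only regions of 100 to under 1000 reads gave 16.8%, 28.8% and 28.7%. At 1000 or more reads, 100 of 101 shared regions overlapped a JUN region and all 101 a SMAD3 and an NFATC2 region, beside 23, 24 and 25 of 26 TGF-only regions. The widths given above for these bins apply here too, and their part was not tested.

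**Figure D4:**
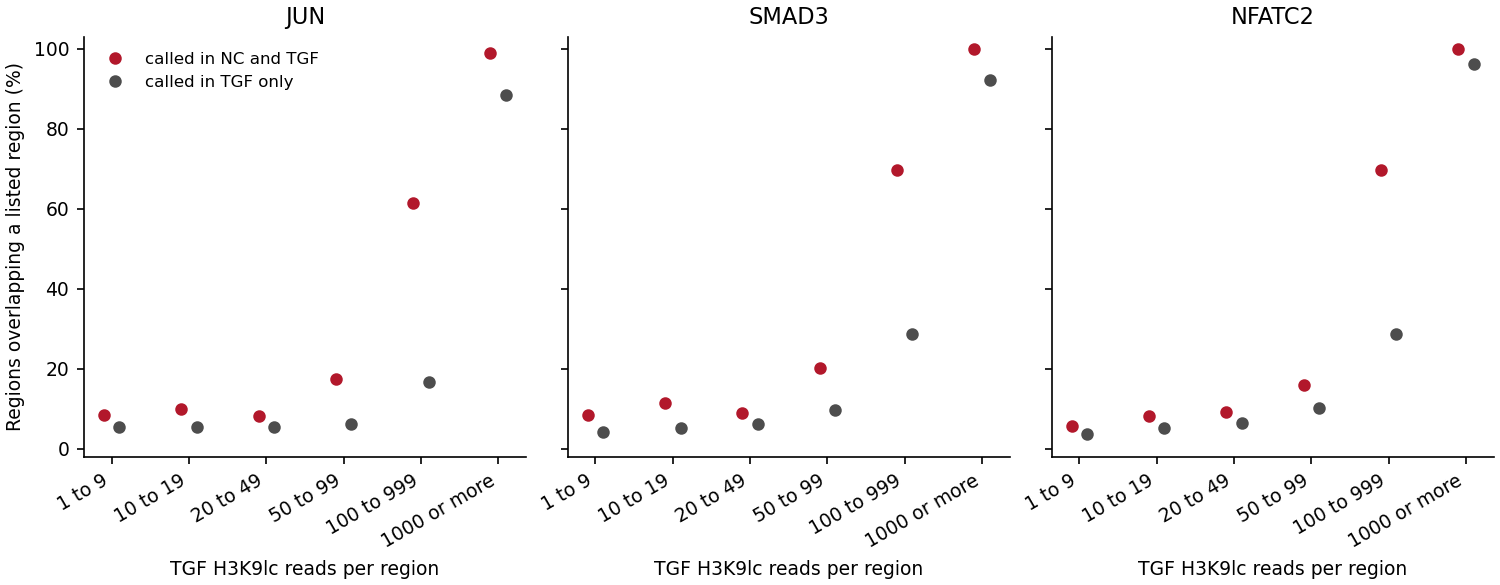
Percent of regions that overlap a listed JUN, SMAD3 or NFATC2 region by at least 1 base (vertical), in bins of TGF H3K9lc reads per region (horizontal), for shared (red) and TGF-only (grey) regions. Points are shares without error bars. From 50 reads upward overlap rises with read number in both sets. At 100 to under 1000 reads it is 61.5, 69.8 and 69.8% of shared regions against 16.8, 28.8 and 28.7% of TGF-only regions.

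The shared regions held a larger share of the listed SMAD3 and NFATC2 reads than of the JUN reads. The totals behind these shares differ: in TGF, JUN had 4215447 listed reads, SMAD3 563562 and NFATC2 575706. As read numbers in TGF, the regions overlapping a shared region had 143655 for JUN and 210254 for SMAD3. Regions overlapping a shared H3K9lc region took 37.3% of the listed SMAD3 reads in TGF and 35.0% in siHK1, 38.2% and 35.2% for NFATC2, and 3.41% and 4.45% for JUN. Those at shared major satellite regions took 17.1% and 12.9% for SMAD3, 15.2% and 13.3% for NFATC2, and 1.01% and 1.60% for JUN. Those at shared mitochondrial copies took 6.74% and 9.90% for SMAD3 and 7.62% and 8.41% for NFATC2, against 0.463% of H3K9lc reads in TGF and 0.540% in siHK1. At the Gm10800 region JUN had 15742 reads in TGF and 13901 in siHK1, SMAD3 32661 and 19534, and NFATC2 30491 and 17975. At the mitochondrial copy chr1:24613383-24614514 (the pseudogene Gm28437), SMAD3 had 25680 and 26813 reads, beside 301 H3K9lc reads in NC, 5259 in TGF and 3283 in siHK1.

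**Figure D5:**
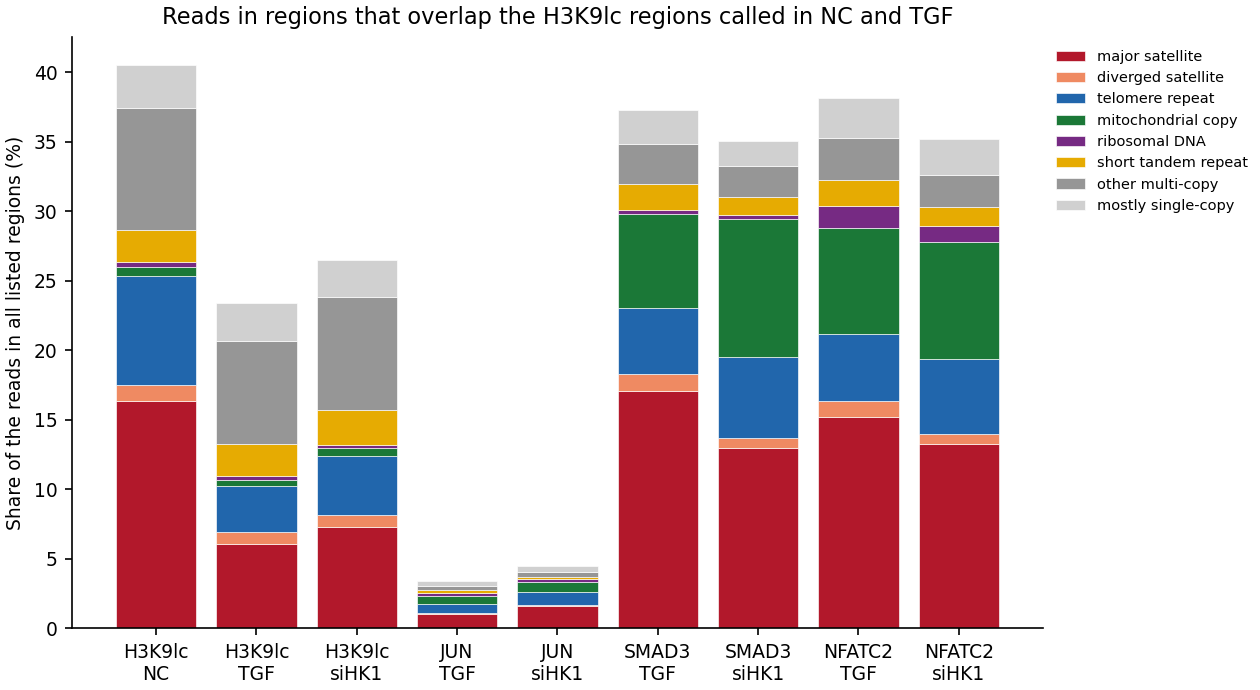
Share of each library's listed reads (vertical, percent) that fell in regions overlapping the shared H3K9lc regions, for 9 libraries (horizontal), stacked by sequence class. NC, SMAD3 and NFATC2 bars reach between 35.0 and 40.5%, TGF and siHK1 H3K9lc bars 23.4 and 26.5%, and JUN bars 3.41 and 4.45%. The listed totals behind the bars differ between libraries, and JUN in TGF had 4215447 listed reads against 563562 for SMAD3.

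The direction of siHK1 over TGF at the satellite differed between antibodies. At equal totals it was above 0 at all 20 major satellite regions for H3K9lc (median 0.20) and for JUN (0.66), and below 0 at all 20 for SMAD3 (-0.56) and NFATC2 (-0.35). Over all listed regions the medians were -0.045 for JUN, 0.0095 for SMAD3 and 0.41 for NFATC2. Telomere repeats gave medians above 0 for each of them, 0.39 for JUN, 0.27 for SMAD3 and 0.16 for NFATC2, over the 34 regions with a listed factor region. Without scaling the JUN median at satellites was below 0, so the opposite directions hold for shares of each library and not for read numbers. The satellite regions share sequence with each other, and whether a read counts at more than 1 of them is not known. They are taken as 1 sequence rather than 20 observations, and the difference between antibodies was not tested.

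The AP-1 motif was looked for because JUN is a subunit of AP-1, which binds TGANTCA. A match on either strand in the central 200 bases was found in 60 of 1055 shared regions (5.69%, 4.37 to 7.26), close to the 6.32% of all listed regions. Shared regions with a JUN region held it in 11 of 292 (3.77%) and those without in 49 of 763 (6.42%). Among mostly single-copy shared regions it was found in 7 of 99 with a JUN region (7.07%, 2.89 to 14.03) and in 25 of 356 without (7.02%, 4.596 to 10.2). Mostly single-copy TGF-only regions with a JUN region held it in 18.4% (16.8 to 20.1), and those without in 6.72% (6.41 to 7.03). A match is only a string of letters, and its absence from the window says nothing of JUN.

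A region with matches that overlapped a JUN region is shown, with TGANTCA in capitals. The region at the promoter of Nt5dc3 held 2 matches and had 501 JUN reads in TGF and 297 in siHK1, but only 3, 23 and 11 H3K9lc reads in NC, TGF and siHK1.
Nt5dc3, chr10:86778525-86778764, plus strand: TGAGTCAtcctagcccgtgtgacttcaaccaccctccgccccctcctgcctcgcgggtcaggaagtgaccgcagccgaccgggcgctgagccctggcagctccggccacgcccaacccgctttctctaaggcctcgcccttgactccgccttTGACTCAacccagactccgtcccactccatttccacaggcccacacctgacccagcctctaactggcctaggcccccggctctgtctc
Of the mostly single-copy shared regions with most JUN reads, the first was chr17:3029622-3030948 near Pisd-ps2, with 970 JUN reads in TGF and 461 in siHK1 and with 303, 6183 and 3588 H3K9lc reads.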

How the data were processed

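CUT&Tag libraries of primary mouse cardiac fibroblasts were compared, with 1 library per condition and antibody. Per the submitters' processing notes, reads were aligned with BWA 0.7.12 to mm10, whereas the methods of the study name other software and a later build. Transcript coordinates of the deposited annotation equalled those of GENCODE vM21 (GRCm38) for all 17716 of 17896 transcripts found there, so coordinates are given on GRCm38, counted from 1. How reads that fit many places were handled is not given in the sources used here. The deposited tables hold raw read counts per region and library, peak calls and annotation made by the authors, and also the authors' normalized log2 values, ratios and p-values, which were not used. A further per-sample column (1) matched no sample and was not used. No spike-in counts were used, and library depths beyond the listed regions are unknown here.

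Shared regions were those called in NC and TGF, and siHK1 reads were summed over regions of the second table that overlapped by at least 1 bp. A total of 1058 such regions overlapped, 2 shared regions took the same one and 4 took several. Counts were brought to equal totals over listed regions, with a pseudocount of 0.5 and a limit of 2-fold. Levels are reads per kb divided by the listed reads of the library. Shares carry exact Clopper-Pearson 95% intervals and single ratios exact conditional Poisson intervals, which cover counting error alone because copies made by PCR do not count separate molecules.

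Sequence was read from the GRCm38 assembly; that of the telomere repeat regions is not reported here. Classes were assigned in this order: mitochondrial copy (at least 50% of 31-base words sampled every 10 bases in the mitochondrial genome), ribosomal DNA (within 3000 bases of the Rn45s start), telomere repeat (at least 20% of bases in TTAGGG or CCCTAA), satellite (local alignment score of at least 80 to 468 bases of the chromosome 2 region, major from 85% identity), short tandem repeat (at least 80% of bases matching at a period of up to 60), mostly single-copy (at least 50% of words) and other multi-copy. The named regions were the 10 with the highest mean NC and TGF level, the 5 lowest and 5 highest siHK1 over TGF ratios among regions with a mean TGF and siHK1 level above the shared median, the 10 highest within 1 kb of a start site, and all assigned to listed genes. Members, lists and tests were chosen with earlier results of these data known. Statistics were tested on simulated data. Python 3.11.15, pandas 2.3.3, NumPy 2.4.6, SciPy 1.17.1, numba 0.67.0 and matplotlib 3.10.9 were used. Alternatives covered pseudocounts, scaling, read minimum, overlap, promoter width, window and single-copy sequence.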

Additional observations from a re-analysis of the deposited data

Results flagged for a closer look

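A library of TGF-β-treated cells whose labels name no antibody was left out of every comparison, yet its called regions overlapped 307 of the 1055 shared regions (29.1%, exact 95% interval 26.4 to 31.9). The same share was 7.94% of TGF-only regions and 3.97% of NC-only regions. By sequence the overlap reached all 20 major satellite and all 4 mitochondrial regions, 34 of 35 telomere repeat regions, 44 of 72 short tandem repeats, and 96 of 455 mostly single-copy regions (21.1%). The 20 major satellite regions had a median of 1095.5 reads there, the mitochondrial copies 5200.5 and the 179 listed mostly single-copy regions 2. It drew attention as signal in data outside the main measurement, and what this library measured is not given by its labels.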

How the results depend on the processing

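Of 78 alternative values, 40 kept the sign and stayed within the interval of the first value, 36 moved and 2 reversed; the cause was not tested beyond what each setting changes by construction. The median of TGF over NC (-0.83) reversed to 3.50 without scaling, and was -1.001 and -0.63 with pseudocounts of 1 and 0.1, -0.40 with at least 5 NC reads, -1.01 with equal totals over mostly single-copy regions and -0.98 in those regions alone. The median of siHK1 over TGF (-0.067) reversed to 0.031 with at least 5 NC reads, and was -0.88 without scaling, -0.15 with regions called in both libraries set to 0, and -0.16 in mostly single-copy regions.

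At least 5 NC reads kept 415 shared regions and mostly single-copy sequence 455. In that order, siHK1 calls covered 90.1% and 45.5%, JUN 56.4% and 21.8%, SMAD3 60.7% and 22.2%, NFATC2 59.3% and 20.7%, regions at least 2-fold lower in siHK1 0.723% and 12.3%, median GC 50.5% and 48.7%, and median repeat-masked bases 75.5% and 33.2%. With at least 5 NC reads 57.6% were distal intergenic and 0% were 2-fold higher; promoters were 12.5% of mostly single-copy regions. Lower regions were 5.88% with a pseudocount of 1 and 39.6% without scaling, where higher ones were 0.0948%. An overlap of at least 50% gave 22.9% for JUN, 24.3% for SMAD3 and 22.7% for NFATC2. The central 200 bp had a GC median of 50.5% and 74.5% repeat-masked bases, and 5.50% lay within 1 kb of a start site.

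Single-copy settings and the median-0 scaling were added after the data had been seen. The planned use of deposited normalized log2 values was not run, since those columns name no library. No paired analysis was possible because a single library stands for each condition, which also leaves no replicate to drop. Of the shared regions, 174 rest on 1 NC read.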

Other observations

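The shared regions were spread over all 21 chromosomes, from 1.39% of the listed regions of chromosome 14 to 2.06% for chromosome 9 and 3.57% for chromosome Y, where they numbered 6 of 168. Of the shared regions, 79 (7.49%) lay within 10000 bases of another. The Spearman correlation of reads per base was taken across the 1055 regions, which share libraries and sequence and are not replicates. It was 0.74 for NC and TGF, 0.72 for NC and siHK1 and 0.91 for TGF and siHK1. Among the 455 mostly single-copy regions it was 0.54, 0.48 and 0.81.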
